A study of Mus musculus with 2 samples.

Results

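The tumour suppressor p53 (gene Trp53) and 9 genes known to be switched on by it were followed in mammary basal cells grown with and without macrophages. The 10 genes were taken by name: Trp53, Mdm2, Ccng1, Phlda3, Zmat3, Sesn1, Sesn2, Trp53inp1, Aen and Eda2r. All 10 were found among the 49492 genes of the count table, and all 10 passed the filter of at least 10 reads summed over the libraries, which 19233 genes passed.

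Basal cells, labelled as primary epithelial cells, were sorted by FACS from the mammary glands of adult female wild-type (WT) mice and grown in a gel matrix for 11 to 14 days; the labels give no strain. The group called ctrl, with no treatment, was cultured alone. The group called M2 shared the well with M2-like macrophages, which were grown from bone marrow, treated with Il-4 and Il-13, held behind the porous membrane of an insert and replaced every other day. Each group is 1 RNA-seq library of whole colonies or organoids, so a difference cannot be weighed against how much cultures vary, and every interval is one of counting error only. The ctrl library held 26912610 reads in genes and the M2 library 29413844.

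p53 is a transcription factor that is made continuously and degraded continuously. Mdm2, a ubiquitin ligase, marks it for destruction, and stress such as DNA damage interrupts this, so that p53 accumulates and binds response elements near its targets. Those targets stop the cell cycle, repair DNA, slow growth, start apoptosis or, like Mdm2, switch p53 off again. Since p53 is regulated mainly as a protein, the RNA level of Trp53 alone does not give its activity, and the RNA of the targets is the usual reading. In the mammary epithelium, loss of p53 is known to extend stem cell self-renewal, and p63, a relative of p53, is a defining factor of basal cells.

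To describe the starts of these genes, RefSeq promoter windows on GRCm38.p6 were searched for the p53 response element consensus. Each window ran from 250 bases before to 50 after a gene's start. The consensus was searched only in its form without a spacer, which spans 20 bases. The consensus reads the same on both strands, so a search of 1 strand covers both. A window was found for 8 of the 10 genes, and for Sesn1 and Aen the better of their windows is given; Zmat3 and Trp53inp1 were not in the table. The best stretch of each gene is printed 5′ to 3′ on the gene's strand, with bases that fit the consensus in capitals, because these stretches show how the 8 windows differ.
Ccng1, chr11:40755462-40755481, minus strand: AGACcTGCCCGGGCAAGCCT
Trp53, chr11:69580284-69580303, plus strand: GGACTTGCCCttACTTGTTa
Sesn1, chr10:41887266-41887285, plus strand: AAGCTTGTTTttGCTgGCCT
Aen, chr7:78895937-78895956, plus strand: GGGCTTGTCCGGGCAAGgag
Mdm2, chr10:117710925-117710944, minus strand: GAACTTGCCTAGcgAccaTT
Phlda3, chr1:135766042-135766061, plus strand: GGcCcTGTCCGGGCggGTgC
Sesn2, chr4:132510463-132510482, minus strand: GGGCgAGCgCtGGCAgtTCC
Eda2r, chrX:97377412-97377431, minus strand: AGAtTAGgCTAGAtcTaaCT

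Ccng1 stood out, with 1 mismatch in 20 bases, found in 0.0883% of all 32851 windows. The stretch starts 195 bases before the gene start. It is printed again within its surroundings, chr11:40755442-40755501 on the minus strand, with all 20 bases of the stretch in capitals.
Ccng1: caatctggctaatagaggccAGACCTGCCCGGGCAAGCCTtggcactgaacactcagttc

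The stretches of Trp53, Sesn1 and Aen had 3 mismatches each, which 6.29% of all windows equal or better. The Sesn1 stretch belongs to the downstream of its 2 RefSeq starts, which lies far inside the gene as the count table bounds it. The Aen stretch starts just downstream of the annotated gene start. Those of Mdm2, Phlda3 and Sesn2 had 5 mismatches, as 76.6% of all windows do or better, and that of Eda2r had 6, as 98.5% do. A match is a description of letters and not a measured site, and response elements outside these windows, such as those in first introns, were not examined. Elements with a spacer were not searched for within the windows either.

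In the M2 library, Trp53 and 5 of its 9 targets (Mdm2, Ccng1, Phlda3, Aen and Eda2r) had higher counts per library size than in ctrl by more than the counting error, from 1.33-fold in Trp53 to 2.02-fold in Eda2r. Sesn1 was lower, at 0.819 of its ctrl level, and Zmat3, Sesn2 and Trp53inp1 did not pass the test. The log2 differences, M2 over ctrl, ran from -0.29 for Sesn1 to 1.02 for Eda2r, with a median of 0.42, whereas the median over all genes tested was -0.0032 and the quartiles were -0.32 and 0.35. Calls needed both an adjusted p below 0.05, from an exact binomial test of the reads, and at least a 2-fold difference. This test compares the 2 libraries and not the conditions. By this rule 1 of the 10 genes, Eda2r, was called higher, beside 8.16% of all genes tested, and 0 were called lower, beside 6.55%. At a threshold of 1.5-fold, 3 genes were called higher (Eda2r, Ccng1 and Mdm2), where 12.8% of all genes were, and 0 lower, where 11.1% were. By the reads alone, at any fold, 6 genes were higher, against 27.0% of all genes, and 1 was lower, against 26.1%. Among the 10627 genes with at least 451 reads, the sum of the member with fewest, these shares were 34.4% and 33.3%. When a biological coefficient of variation of 0.2 was assumed in the exactTest of edgeR, 0 of the 10 genes were called in either direction, beside 5.01% of all genes higher and 3.59% lower. At any fold, 0 of the 10 had an adjusted p below 0.05 in that test. In whole colonies, more RNA of a gene per cell and more cells that express it cannot be told apart.

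**Figure D1:**
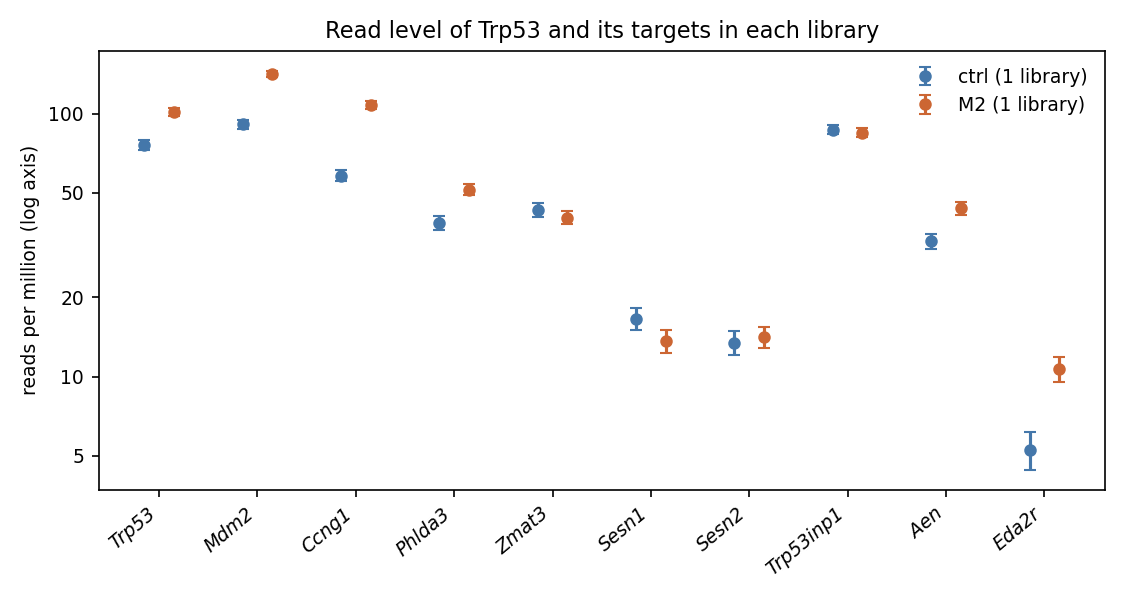
CPM, the read count scaled to the effective library size (log axis), for each of the 10 genes in the ctrl and M2 libraries; bars are 95% exact Poisson intervals, which cover counting error only. The intervals of the libraries do not overlap for Trp53, Mdm2, Ccng1, Phlda3, Aen and Eda2r, where M2 is higher, they overlap for Zmat3, Sesn2 and Trp53inp1, and for Sesn1 (15.1 to 18.2 in ctrl, 12.3 to 15 in M2) they lie just apart with M2 lower.

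**Figure D2:**
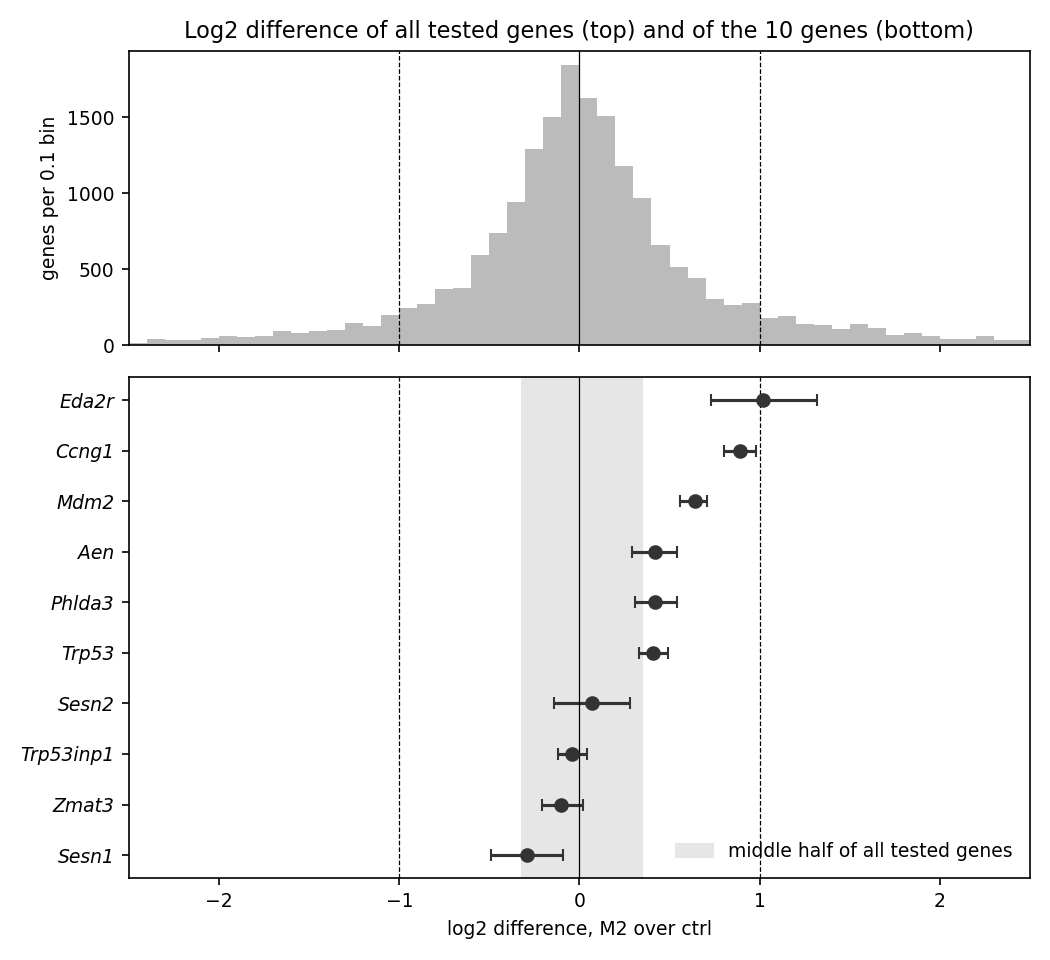
Top: number of tested genes in bins of 0.1 of the log2 difference, M2 over ctrl, within the range drawn. Bottom: the log2 difference of each of the 10 genes with its 95% Clopper-Pearson interval, the grey band from the lower to the upper quartile of all genes tested (-0.32 to 0.35), and dashed lines at 2-fold; 6 genes lie above the band, and Eda2r lies at the upper dashed line.

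Trp53 (chromosome 11, 69580359 to 69591873, plus strand, GRCm38) had 2096 reads in ctrl and 2927 in M2, which is 76.3 and 102 CPM. M2 was 1.33-fold higher, or 0.41 on the log2 scale (95% interval 0.33 to 0.49), with an adjusted p of 7.41e-23 by the exact test. The difference was above the counting error of the reads and below the 2-fold threshold. No exon of another gene in the table overlaps an exon of Trp53 or of the 9 targets.

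The feedback genes Mdm2 and Ccng1 had the largest differences of the 10 after Eda2r. Mdm2 (chromosome 10, 117688888 to 117710758, minus strand) had 2511 and 4093 reads, or 91.4 and 142 CPM, a 1.55-fold higher level in M2. Its log2 difference was 0.64 (0.56 to 0.71; adjusted p = 3.19e-68, exact binomial test). Ccng1 (chromosome 11, 40748552 to 40755311, minus strand) encodes cyclin G1, which brings the phosphatase PP2A to Mdm2. It had 1600 and 3110 reads, or 58.2 and 108 CPM, and a log2 difference of 0.89 (0.80 to 0.98), so that the interval stayed under 2-fold. This is the gene whose promoter holds the near-complete p53 consensus printed above. Eda2r, with the largest difference of the 10, had 6 mismatches. Of the genes with 3, Trp53 and Aen were higher in M2 and Sesn1 was lower. Whether such a stretch bears on the level was not tested.

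Phlda3 (chromosome 1, 135766119 to 135769136, plus strand), whose product competes with the kinase Akt for membrane lipids, had 1053 and 1483 reads, 38.3 and 51.5 CPM, and a log2 difference of 0.42 (0.31 to 0.54). Zmat3 (chromosome 3, 32334792 to 32366014, minus strand), an RNA-binding zinc finger protein, had 1182 and 1160 reads, 43.0 and 40.3 CPM. On the log2 scale this was -0.10 (-0.21 to 0.02), an interval that included 0 (adjusted p = 0.169, exact test). Phlda3 was thus higher by more than the counting error and Zmat3 was not.

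Of the genes of cell death, Aen (chromosome 7, 78895854 to 78911209, plus strand), a nuclease that enhances apoptosis, had 897 and 1258 reads, 32.7 and 43.7 CPM, and a log2 difference of 0.42 (0.29 to 0.54). Eda2r (chromosome X, 97333840 to 97377216, minus strand) encodes a receptor of the TNF receptor superfamily that binds ectodysplasin A2. It rose from 144 to 307 reads, from 5.24 to 10.7 CPM, a difference of 1.02 on the log2 scale (0.73 to 1.32) with an adjusted p of 2.65e-12 by the exact test. The call lies at the edge of the 2-fold threshold: scaled by total reads alone the value was 0.96, and Eda2r was then not called. With an assumed variation of 0.2 in the exactTest of edgeR its adjusted p was 0.172. Trp53inp1 (chromosome 4, 11156431 to 11174379, plus strand), a nuclear cofactor of p53 that also acts in autophagy, had 2390 and 2438 reads, 87.0 and 84.6 CPM, and a log2 difference of -0.04 (-0.12 to 0.04). It ranked at the 46.8 percentile of all genes tested, while Eda2r ranked at 90.6 and Ccng1 at 88.9.

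The sestrins, stress proteins that restrain the growth kinase mTORC1, did not share the higher level. Sesn1 (chromosome 10, 41809935 to 41908424, plus strand) had 455 and 391 reads, 16.6 and 13.6 CPM. Its log2 difference of -0.29 (-0.49 to -0.09; adjusted p = 0.00863, exact binomial test) made it the member that was lower by the reads, but far from 2-fold. Sesn2 (chromosome 4, 132492032 to 132510501, minus strand) had 369 and 406 reads, 13.4 and 14.1 CPM, and a log2 difference of 0.07 (-0.14 to 0.28). Sesn3, the third member of the family, which is better known as a FOXO target, had the most reads, 5660 and 3547, and a log2 difference of -0.74 (-0.80 to -0.68). The ratio of Sesn2 to Sesn1 reads went from 0.811 to 1.04, a change of 0.36 on the log2 scale (0.07 to 0.65), and this pair was chosen after its values were seen. When the libraries were scaled by total reads alone, Zmat3 (-0.16, adjusted p = 0.0198, exact binomial test) and Trp53inp1 (-0.10, adjusted p = 0.0323, exact binomial test) were also lower by the reads, so that 3 of the 10 genes were.

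To compare the genes with each other, reads were divided by the annotated exon length of each gene and given as TPM. Which transcripts of a gene were expressed was not determined, so the order of the genes depends on these lengths. The counting intervals do not cover an error in them. In ctrl, Phlda3 was highest with 64.0 TPM, followed by Trp53 (49.1), Mdm2 (46.9), Ccng1 (43.1) and Trp53inp1 (34.9). Lower levels were found for Aen (14.6), Sesn1 (10.8), Sesn2 (10.1), Zmat3 (9.79) and Eda2r (2.31). The counting intervals of neighbours overlapped for Trp53 with Mdm2, Mdm2 with Ccng1, Sesn1 with Sesn2, and Sesn2 with Zmat3. In M2 the order of the upper genes was Phlda3 (83.2 TPM), Ccng1 (77.5), Mdm2 (70.6), Trp53 (63.3) and Trp53inp1 (32.9). Ccng1 and Mdm2 stood above Trp53 in M2, with intervals apart, and below it in ctrl, where the intervals of Trp53 and Mdm2 overlapped. Phlda3 led and Eda2r, at 4.56 TPM in M2, was last in both libraries. The lower genes in M2 were Aen (19), Sesn2 (10.2), Zmat3 (8.88) and Sesn1 (8.59), and the intervals of Sesn2 with Zmat3 and of Zmat3 with Sesn1 overlapped, as did those of Phlda3 with Ccng1.

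Ratios within a library do not depend on how the libraries are scaled, so each target was also set against Trp53. The reads of the 9 targets summed to 10601 in ctrl and 14646 in M2, or 386 and 508 CPM, a log2 difference of 0.40 (0.36 to 0.43). For each Trp53 read there were 5.06 reads of the sum in ctrl and 5.0 in M2, which is -0.02 on the log2 scale (-0.10 to 0.07), an interval that included 0. Within the sum the genes diverged. Relative to Trp53, Eda2r was higher by a log2 value of 0.61 (0.31 to 0.92), Ccng1 by 0.48 (0.36 to 0.60) and Mdm2 by 0.22 (0.11 to 0.33). For Phlda3 and Aen the changes were 0.01 (-0.13 to 0.15) and 0.01 (-0.14 to 0.16), both with intervals across 0. Sesn1 (-0.70), Zmat3 (-0.51), Trp53inp1 (-0.45) and Sesn2 (-0.34) were lower relative to Trp53, and none of their intervals reached 0.

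**Figure D3:**
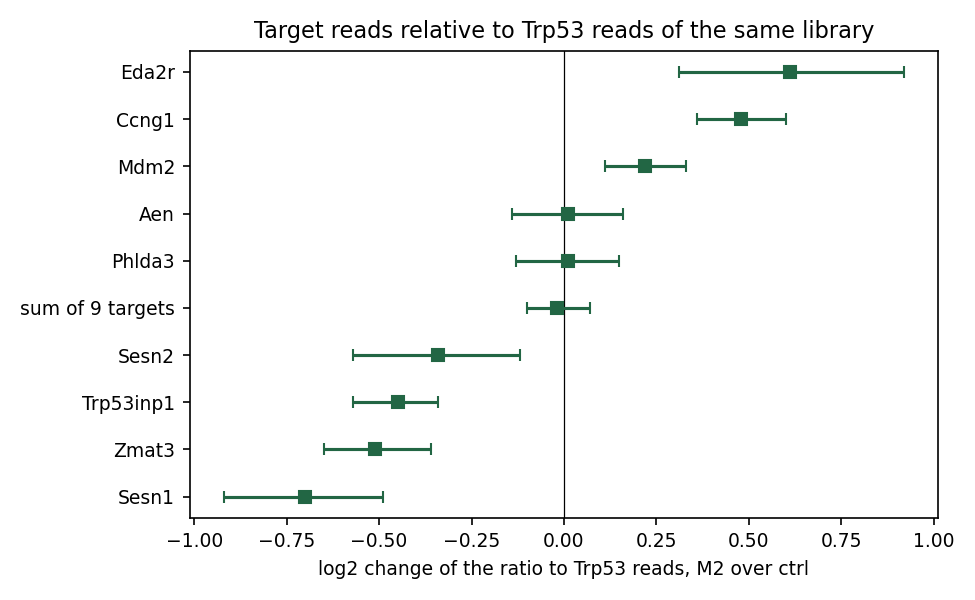
Log2 change, M2 over ctrl, of the ratio of each target's reads to the Trp53 reads of the same library, with exact conditional 95% intervals; the sum of the 9 targets is shown as a row of its own. Eda2r, Ccng1 and Mdm2 lie to the right of 0, Aen, Phlda3 and the sum lie at 0, and Sesn2, Trp53inp1, Zmat3 and Sesn1 lie to the left.

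The 10 genes were next placed among 81 genes of the pathway, which include them and were listed by role. Of the 81, 9 were called higher and 2 lower, beside 8.16% and 6.55% of all genes tested, and 70 were not called. By the reads at any fold, 33 were higher and 21 lower, beside 27.0% and 26.1% of all genes tested. Among the genes with at least 451 reads, these any-fold shares were 34.4% and 33.3%. The median log2 difference of the 81 was 0.07. The shares of 8.16% and 6.55% are the background for the calls of each list below. The lists were chosen with earlier results of these data known. The genes called in either direction are all named in what follows. Among 26 p53 relatives, modifiers and cofactors the median was -0.01, with 1 gene called higher and 0 lower. That gene was Cdkn2a, with 56 and 155 reads and a log2 difference of 1.38 (0.95 to 1.87). It encodes p19Arf, which holds Mdm2 away from p53, and also the cell cycle inhibitor p16, and counts per gene cannot separate these. Trp63, the p53 relative of basal cells, had 5445 and 6331 reads, a difference of 0.15 (0.10 to 0.20), and levels per length of 61.4 and 66.0 TPM. Trp73 had few reads, 128 and 251, and a difference of 0.90 (0.59 to 1.22). Mdm4, a relative of Mdm2 that holds p53 inactive, had 4051 and 3664 reads, a difference of -0.21 (-0.28 to -0.15). The ratio of Mdm2 to Mdm4 reads thus went from 0.620 to 1.12, a log2 change of 0.85 (0.75 to 0.95), a pair chosen after its values were seen. Ppm1d, a phosphatase that shuts off the damage signal and is itself a p53 target, had 413 and 431 reads, a difference of -0.01 (-0.21 to 0.19).

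Among 13 arrest targets the median was 0.40, and 2 were called higher and 1 lower. Cdkn1a, which encodes p21, the main arrest factor under p53, had 980 and 1769 reads, a log2 difference of 0.78 (0.67 to 0.90) that did not reach 2-fold. Gadd45a (587 and 812 reads), Sfn (6074 and 8387 reads) and Plk2 (4222 and 6551 reads) had values of 0.40, 0.40 and 0.56. Called higher were Ptp4a3, a phosphatase (91 and 253 reads, 1.40), and Gtse1, which is made in late cell cycle phases and restrains p53 (169 and 389 reads, 1.13). Zfp365, which guards genome stability at DNA replication forks, fell from 395 to 129 reads, with a log2 value of -1.68 (-1.98 to -1.39). Btg2, an antiproliferative gene with many reads, had 19794 and 10963, a difference of -0.92 (-0.96 to -0.89), and stayed just short of a call.

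The 15 apoptosis targets had a median of 0.42, with 3 called higher and 0 lower. Pmaip1, which encodes the BH3-only protein Noxa, rose from 221 to 2465 reads, a 10.6-fold difference (log2 3.40, 95% interval 3.21 to 3.62). Bbc3, which encodes the related protein Puma, had 240 and 291 reads, a difference of 0.21 (-0.04 to 0.46; adjusted p = 0.158, exact binomial test). The death receptor gene Fas rose from 278 to 603 reads, or by 1.05 on the log2 scale (0.84 to 1.26), and like Eda2r it lay at the threshold. Scaled by total reads alone, neither was called, which left 1 of the 15 called higher and 7 of the 81. Bax, the pore-forming effector, had 706 and 992 reads (0.42), and Perp, a desmosome protein that p53 and p63 both regulate, had 25766 and 19837 (-0.45). Pmaip1 had the largest difference of the 15.

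None of the 7 repair targets was called in either direction, and their median was -0.08. Rrm2b, a subunit of ribonucleotide reductase, had 672 and 582 reads, a difference of -0.28. The 13 targets of metabolism and autophagy had a median of 0.07, with 2 called higher and 0 lower. Dram1, a lysosomal membrane protein that promotes autophagy, rose 10.5-fold from 444 to 4901 reads (log2 3.39, 3.25 to 3.54), and Dcxr, a carbonyl and xylulose reductase, from 117 to 511 reads, with a log2 value of 2.05 (1.77 to 2.36). Tigar, which lowers glycolytic flux, had 283 and 277 reads (-0.10), and Ddit4, an mTORC1 inhibitor that also answers hypoxia, had 1282 and 2391 (0.83). In the list of survival and feedback targets, 1 of 10 was called higher and 1 lower, both phosphatases of MAP kinases: Dusp4 rose from 1328 to 3377 reads (1.28) and Dusp1 fell from 9423 to 4804 (-1.04). With the same assumed variation of 0.2 (edgeR exactTest), 6 of the 9 higher calls of the pathway and 1 of the 2 lower calls were met, and Eda2r, Gtse1 (adjusted p = 0.0923), Fas (0.128) and Dusp1 (0.113) were not called. The secreted stress factor Gdf15 had 71 and 48 reads, a difference of -0.62 (-1.19 to -0.09).

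**Figure D4:**
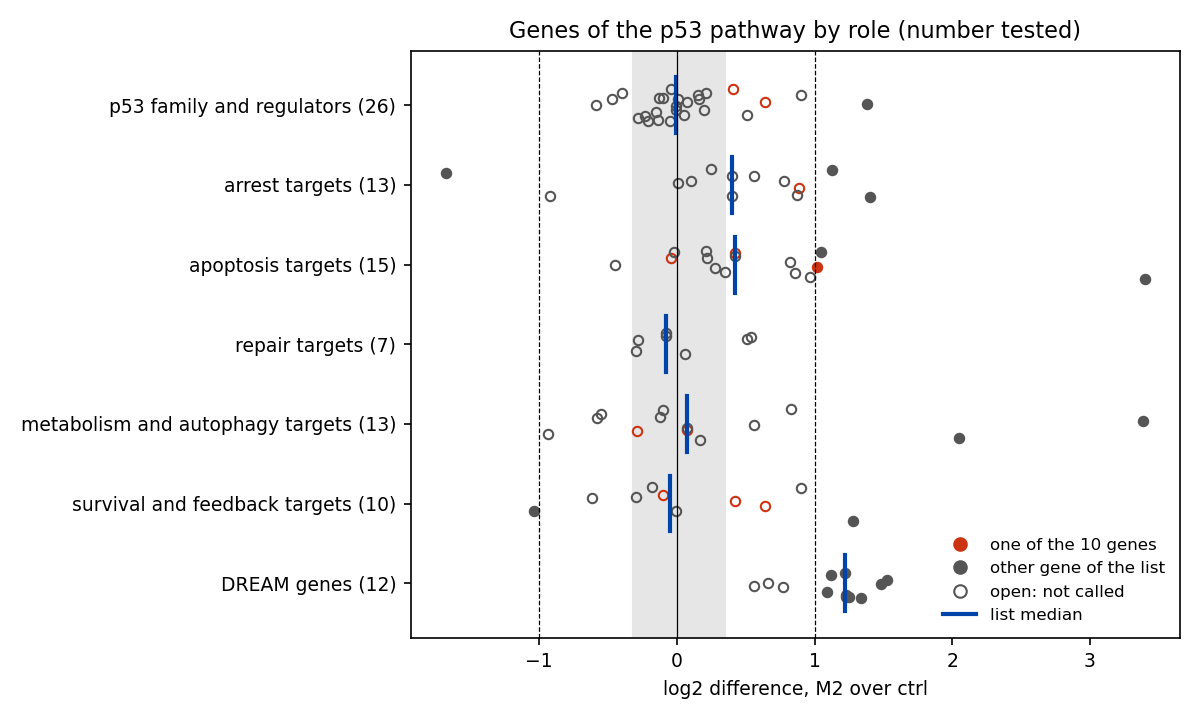
Log2 difference, M2 over ctrl, of each tested gene of the p53 pathway lists and of the DREAM list, 1 row per list with the number of genes tested; filled points were called, open points were not, red points are among the 10 genes, blue bars are list medians, dashed lines mark 2-fold and the grey band spans the quartiles of all genes tested. Arrest and apoptosis medians (0.40 and 0.42) lie above the band, regulators and repair (-0.01 and -0.08) within it, Pmaip1 and Dram1 far to the right, and the DREAM genes at a median of 1.22.

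A further list held 12 genes of mitosis that p53 is known to lower indirectly, through p21 and the DREAM repressor complex. Here 9 of the 12 were called higher and 0 lower, beside 8.16% and 6.55% of all genes tested. Log2 differences ran from 0.56 to 1.53 with a median of 1.22. With an assumed variation of 0.2 (edgeR exactTest), 5 of the 12 were called higher, beside 5.01% of all genes tested. The higher level of these genes stood beside that of Cdkn1a and Gtse1, and its part in the values above was not tested. Of 12 targets of the stress factor ATF4, which share Sesn2 and Ddit4 with p53, 1 was called higher and 1 lower, with a median of 0.18. Of 10 FOXO targets, which share Sesn1 and Bcl6 with the p53 lists, 9 were tested, 0 were called higher and 1 lower, and the median was -0.15.

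Markers of cell types also differed between the libraries, and their part in the values above was not tested. Their calls stand beside 8.16% of all genes tested called higher and 6.55% lower. The 10 basal markers summed to 9078 CPM in ctrl and 10308 in M2, with 1 called higher and 0 lower, and the 12 luminal markers summed to 4194 and 3488, with 0 called higher and 5 lower, so both libraries held RNA of both epithelial lineages. The 10 fibroblast markers summed to 675 and 176, with 2 called higher and 3 lower. Col6a3 alone gave 9433 of the 18553 reads in ctrl and 523 of 5077 in M2. Col1a2 and Col3a1 were also called lower, and Fbln1 (log2 2.88) and Dcn (1.53) were called higher, so the markers did not move together. The 16 macrophage markers summed to 64.8 and 82.1, for the most part from Arg1 (1507 of 1780 reads in ctrl and 2090 of 2366 in M2). Adgre1 and Ptprc, which define macrophages and leukocytes, had 0 reads in both libraries, for which the limit of detection, taken as 3 reads, is 0.109 CPM in ctrl and 0.104 in M2, and 7 of the 16 markers were at 0 in both. The filter left 4 of the 16 to be tested: Arg1, Cd68 (170 reads in ctrl and 165 in M2), Csf1r (94 and 92) and Itgam (3 and 9). Of these, 0 were called. The macrophage and fibroblast markers named here were named after their values were seen.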

How the data were processed

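The authors deposited raw read counts per gene, without normalization, for 1 ctrl and 1 M2 library. The labels name a SMARTER mRNA kit and the submitters' processing notes name GRCm38 and mm10. The aligner, counting tool, annotation and use of strand are not given in the sources used here. Of the rows, 47214 carry a GENCODE M21 gene name. Libraries were scaled by TMM in edgeR 4.0.16 (R 4.3.3), with factors of 1.02 for ctrl and 0.980 for M2, and a pseudocount of 1 read was added before the log2 difference. Genes with at least 10 reads in all entered an exact binomial test, two-sided, of reads against effective library sizes (SciPy 1.17.1), with Benjamini-Hochberg adjustment over all 19233. Intervals are 95% Clopper-Pearson (differences), Poisson (levels) or conditional (ratios of ratios). A quasi-likelihood or DESeq2 test needs replicates. Without molecular identifiers, intervals cover counting error only. TPM (reads per exon base, scaled to a fixed sum) used the length column, and CPM the effective library size. Alternatives covered scaling, filter, pseudocount, gene length, fold and an assumed variation. The scripts were tested on simulated data. Members and lists were chosen with earlier results of these data known. Named besides the members were 20 listed genes whatever their values, and up to 3 called genes per pathway list with at least 50 reads in a library. Cop1 was matched to its older symbol Rfwd2. No gene was named for a likeness of pattern, since each gene has 1 difference.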

Additional observations from a re-analysis of the deposited data

How the results depend on the processing

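Each of the 10 differences and its call was taken again under 13 alternatives. Those of filter, fold and assumed variation bear on the call only and leave the log2 difference as it was. Of 130 values, 123 left the call as it was, in the same direction where called, 5 lost the call, all of them of Eda2r, 2 gained a call at 1.5-fold (Ccng1 and Mdm2), and 0 reversed. Since 9 of the 10 genes were not called as reported, most of the 123 had no call to lose. By adjusted p at any fold, 6 genes were higher and 1 lower as reported, and 6 and 3 with total reads. In the exactTest of edgeR these became 3 and 0 at an assumed variation of 0.1, and 0 and 0 at 0.2 and at 0.4. With the trend on gene length removed, Trp53inp1 moved from -0.04 to 0.00, called in neither. Of the 10 genes, 0 were called higher with total reads, with a pseudocount of 5, at 4-fold, or in the exactTest of edgeR with an assumed coefficient of variation of 0.2 or 0.4, against 1 as reported, and 3 were at 1.5-fold; 0 were called lower throughout. Eda2r was 0.96 with total reads and 1.0, just under the threshold, with a pseudocount of 5. Its adjusted p in the exactTest was 0.172 at 0.2 and 1.0 at 0.4. The median of the 10 genes ran from 0.36 (total reads) to 0.42. Among the 81 pathway genes, 9 higher and 2 lower became 7 and 2 with total reads, 17 and 5 at 1.5-fold, 3 and 0 at 4-fold, 6 and 1 with a variation of 0.2, and 2 and 0 with 0.4. Over all genes, 1570 higher and 1260 lower became 964 and 691 with 0.2, 175 and 130 with 0.4, and 797 and 583 with at least 1 CPM in both libraries. With 1 library per group, the data give no spread of their own, and no library could be left out. Depth limits Eda2r and Trp73, whose intervals are wide. No paired analysis was possible because ctrl and M2 are single libraries.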
